A study of Mus musculus with 40 samples.

Results

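66708 is a population of 4T1 mouse mammary carcinoma cells that carries a hairpin taken to be aimed at Slpi. That target is read from its libraries being grouped with those of the Slpi-named lines, and its label does not state it. 66708 was set here against the 4 other lines of that group, Slpi1U1, Slpi1U2, Slpi2 and Slpi4. A short hairpin RNA is transcribed in the cell and cut into a small RNA that lowers the mRNAs it pairs with. The members were the 2 libraries of 66708 and the 8 libraries of the 4 other lines, 10 of the 20 library columns of the series, taken by their column names and compared within their own table. All 5 lines are transduced 4T1 populations, infected at a multiplicity of 0.3 and kept under a drug for about 10 days until most cells carried a hairpin. 66708 was held in 1 µg/ml puromycin, and the 4 other lines, called the shERWOOD lines here, were held in 500 µg/ml hygromycin. No line without a hairpin, and no line with a hairpin against an unrelated gene, was part of the comparison.

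The series asked how much hairpins from the TRC collection, and microRNA-embedded hairpins picked by the shERWOOD algorithm, change genes besides their target. That 66708 is the TRC hairpin is read from its number-style name and its drug, and no label says so. There is 1 such line, so hairpin source, vector, drug and the line itself cannot be told apart in any difference below. The labels do not tell whether the 2 libraries of a line are independent cultures. The p-values therefore rest on library-to-library spread that could be purely technical. A lower level in these bulk libraries can stand for fewer cells of a type or for less RNA per cell, and the 2 cannot be told apart.

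A small RNA can pair with many transcripts through its first bases, the seed, and a cell line that has gone through infection and selection can also drift as a population. Changes that follow from either can reach large, co-regulated gene groups: the sterol and amino acid stress programs, the oxidative and protein-making machinery, and the genes of cell division. The libraries held 12.2 M to 28.5 M reads each, with 13.3 M and 28.5 M in 66708. Levels below are scaled reads, which are reads after the authors' size factors, and a fold is a ratio of mean scaled reads. A log2 difference is on the authors' variance-stabilized scale unless it is named as a voom fold, and it understates the change of weakly expressed genes.

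Slpi, the secretory leukocyte peptidase inhibitor, lies on chromosome 2 (RefSeq, GRCm38.p6, 164354070 to 164356507). It had 2734 and 2520 scaled reads in the 66708 libraries, against a lowest of 759, a median of 837 and a highest of 1027 in the 8 shERWOOD libraries. Both 66708 libraries lay above all 8 others. The difference was 3.01-fold, or 1.24 ± 0.04 on the log2 scale (SE; limma, Benjamini-Hochberg adjusted p = 9.41e-12). Without a line that lacks a hairpin, this gives no knockdown for any of the 5.

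The carcinoma identity of the cells was checked first. Of 11 tested markers of epithelial and 4T1 cells, Slpi among them, 9 rose and 2 fell in 66708. Epcam, an epithelial adhesion molecule, had 1843 and 1960 scaled reads in 66708, against 1047 to 1175 in the shERWOOD libraries, and Cdh1, E-cadherin, had 9824 and 10123, against 7294 to 7963. Krt14, a basal keratin, had 580 and 546, against 134 to 180, while Krt7 and Krt19, simple-epithelial keratins, were 1.44-fold and 1.53-fold lower. Of 54 markers of leukocytes, fibroblasts, endothelium and other tissues, 46 stayed under a mean of 10 scaled reads and 6 had no read in any library. Their summed level was 18.1 and 19.7 CPM (reads scaled to a common library total) in 66708 for leukocyte markers, against 17.2 to 22.1 CPM. For fibroblast and pericyte markers it was 43.8 and 44.5 CPM in 66708, against 42.5 to 57.0 CPM. Endothelial markers summed to 3.24 and 2.24 CPM in 66708, against 4.76 to 6.73 CPM in the shERWOOD libraries. Of these 11 markers 10 stayed under a mean of 10 scaled reads, and the exception was Tie1, described below. Markers of adipocytes, muscle and erythroid cells summed to 5.73 and 5.15 CPM in 66708, against 6.39 to 10.02 CPM. This sum and the endothelial one lay below every shERWOOD library. Their part in the results was not tested.

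Of 9489 genes tested on the deposited scale, 55.7% passed between 66708 and the mean of the 4 shERWOOD lines, 3046 (32.1%) higher in 66708 and 2239 (23.6%) lower (limma, adjusted p under 0.05). Each later list count on the deposited scale is to be read beside these 2 shares. The minimum for this test is averaged over 10 libraries, 8 of them shERWOOD, so a gene low only in 66708 passes it more easily than one high only there. Both 66708 libraries lay above all 8 others for 28.3% of genes and below all 8 for 20.4%. Against each of the 4 lines singly, 38.5% of genes (Slpi4) to 48.5% (Slpi1U2) were called, 48% of them against Slpi1U1 and 48% against Slpi2. The 6 pairs of shERWOOD lines gave 0.79% to 6.48%. A gene was called in the same direction against all 4 lines for 1603 genes higher (16.9%) and 1079 lower (11.4%), with the same 66708 libraries in each of the 4 comparisons. The median absolute log2 difference was 0.102 to 0.124 between 66708 and a shERWOOD line, and 0.0452 to 0.0592 between shERWOOD lines. These medians are taken over all tested genes, called or not. By limma-voom on reads, 50 of the 9489 genes were called at least 2-fold higher and 41 at least 2-fold lower. Among the 4 shERWOOD lines themselves 716 genes (7.55%) differed.

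**Figure D1:**
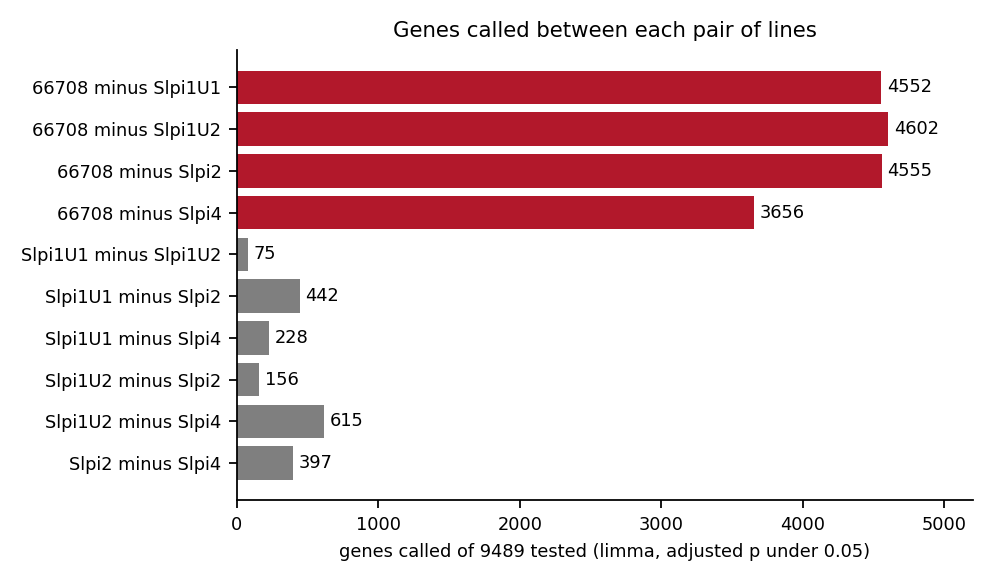
Number of genes called between each pair of lines, of 9489 tested, on the deposited scale. Each bar is 1 pair with 2 libraries a line; the 4 pairs that hold 66708 (red) give 3656 to 4602 genes, and the 6 pairs of shERWOOD lines (grey) give 75 to 615.

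Nuclear genes of respiratory complexes I, III, IV and V were higher in 66708 more often than lower. The respiratory chain passes electrons from nutrients to oxygen and pumps protons, and ATP synthase uses the proton gradient to make ATP; most subunits are encoded in the nucleus. Of 71 tested nuclear subunit genes 54 rose and none fell, with 17 that did not pass. Counts of 0 in a direction on the deposited scale (limma) were checked for each list and its parts. Among the same members they were also 0 at an unadjusted p under 0.05 and by limma-voom, with an exception. In the large subunit of the mitochondrial ribosome, described below, 0 of 47 genes were called lower. There 2 genes were lower at an unadjusted p under 0.05 and 2 by limma-voom. All 10 tested genes of complex IV, cytochrome c oxidase, rose, as did 14 of 15 of ATP synthase, 25 of 36 of complex I and 5 of 10 of complex III with cytochrome c. The median log2 difference of the 71 genes was 0.23, against 0.02 over all genes tested, of which 32.1% were called higher and 23.6% lower.

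Cox6a1, a subunit of complex IV, had 5892 and 5029 scaled reads in 66708, against a lowest of 2709, a median of 3505 and a highest of 4227 in the shERWOOD libraries. Atp5l, a subunit of the ATP synthase membrane part, had 1521 and 1388 scaled reads, against 776, 884 and 1031. In both genes the 66708 libraries lay above all 8 others. The folds were 1.55 for Cox6a1 (log2 difference 0.57 ± 0.08, SE; limma, adjusted p = 2.11e-05) and 1.61 for Atp5l (0.51 ± 0.04; adjusted p = 1.84e-07). Ndufa11, an accessory subunit of complex I, was 1.59-fold higher, Ndufb8 1.53-fold and Uqcr11 of complex III 1.44-fold. Among the shERWOOD lines 0 of the 71 genes differed in limma's F test at an adjusted p under 0.05, with 12 at an unadjusted p under 0.05 and 0 by limma-voom.

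The ribosome of the mitochondrion, which translates the few proteins encoded there, also had more genes higher than lower. So did all genes tested, at 32.1% higher and 23.6% lower. Of 75 tested genes 40 rose and 1, Mrps5, fell, a lower call that was lost without any 1 of 8 libraries, both 66708 replicates among them. Mrps6, a small-subunit protein, had 3273 and 3237 scaled reads in 66708, against 1342 to 1605 in the shERWOOD libraries, a 2.22-fold difference. RefSeq places Mrps6 (chromosome 16, 92058336 to 92112227) over Slc5a3 (92058322 to 92087473), so its count is uncertain. Mrpl48 and Mrpl54, of the large subunit, were 1.52-fold and 1.51-fold higher. Of 24 tested genes around pyruvate entry and the tricarboxylic acid cycle 10 rose and 1, Dlat, fell, and 0 were called lower without 66708 replicate 1. Among them Idh1, the cytosolic NADP-dependent isocitrate dehydrogenase, had 3189 and 3408 scaled reads in 66708, against 1657 to 2395. Of 7 pentose phosphate genes 4 rose, led by Pgd at 1.38-fold.

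Cytosolic ribosomal protein genes rose in number but rested partly on 1 library. Of 75 tested genes 54 rose and 1, Rpl4, fell, with 0 large-subunit genes called lower without 66708 replicate 2. Rpl41 had 32185 and 24290 scaled reads in 66708, against 11661 to 20126 in the shERWOOD libraries, and Rps12 had 1857 and 1722, against 1158 to 1305. The large-subunit genes called higher numbered 29 of 44 with all libraries, 7 without 66708 replicate 1 and 13 with hairpin means as samples. The small-subunit genes numbered 25 of 31 with all libraries and 14 without that replicate. Complex I had 25 genes called higher with all libraries and 15 without it. Reads from ribosomal pseudogenes may be shared with these genes, so single values are uncertain. Reads assigned to Rn45s, the precursor of ribosomal RNA, made up 2.77% and 2.31% of the 66708 libraries, against 1.27% to 1.87% in the shERWOOD libraries, and its part in these counts was not tested.

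Transcript length moved with the result. Over the fifth of tested genes with the shortest transcripts (up to 2080 bases) the median log2 difference was 0.09, and over the fifth with the longest (from 5492 bases) it was -0.03. Respiratory chain genes have a median transcript of 1026 bases and cytosolic ribosomal protein genes one of 1059, against 2788 over all genes with a length. With the length trend taken out of every library, an alternative chosen after seeing the data, 40 of 71 respiratory chain genes still rose and none fell, with a median of 0.13. Complex I then had 15 genes called higher, complex IV 8 and ATP synthase 12. The cytosolic ribosome had 30 higher and 2 lower of 75, and the mitochondrial ribosome 24 higher and 7 lower of 75. The share over all genes was then 27.3% higher and 27.2% lower, which the mitochondrial ribosome's higher share lies near.

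**Figure D2:**
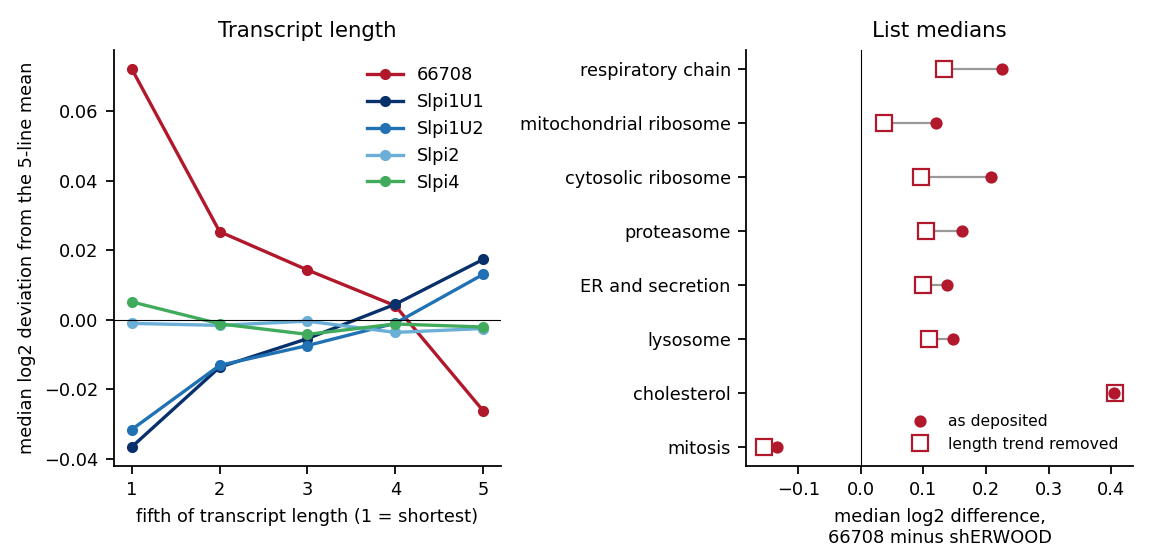
Left, median log2 deviation from the mean of the 5 lines on the deposited scale (vertical axis) in 5 equal groups of genes by transcript length (horizontal axis, 1 = shortest). Right, median log2 difference of 66708 minus shERWOOD for 8 gene lists as deposited (filled circles) and with the length trend removed (open squares); the respiratory chain has medians of 0.23 as deposited and 0.13 with the trend removed, and mitosis has -0.13 and -0.15.

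Protein entry into the endoplasmic reticulum and its folding there rose as a group. Secreted and membrane proteins pass the Sec61 channel, lose their signal peptide, receive glycans and fold with chaperones before coated vesicles carry them on. Of 23 tested genes of translocation and signal cleavage 20 rose and 1, Srp54a, was called lower, with a median log2 difference of 0.20. The lower call was lost with a replicate block, with hairpin means and without any 1 of 6 libraries, 66708 replicate 1 among them. Sec11c, a catalytic subunit of signal peptidase, had 986 and 936 scaled reads in 66708, against 544 to 688. Ssr1, of the translocon-associated complex, had 11412 and 11808, against 7685 to 8994. In both genes the 66708 libraries lay above all 8 others, at 1.58-fold and 1.39-fold.

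Of 26 chaperone and disulfide genes 22 rose and 1 fell. The gene that fell was Ero1l, an oxidase of the disulfide pathway that is also induced by hypoxia. Of 27 genes of glycan transfer and trimming 13 rose and 2 fell, led by Ostc at 1.47-fold. The vesicle coat genes stood at 13 higher and 4 lower of 30, and at 7 and 2 without 66708 replicate 1. Without 66708 replicate 2 the glycan genes called lower numbered 0. Among 20 genes of stress sensing and degradation 9 rose and 3 fell: Atf6b, a membrane-bound transcription factor, was 1.54-fold higher, while Herpud1 and Edem2, both of the degradation route, were 1.58-fold and 1.53-fold lower. Herpud1 also differed among the shERWOOD lines (limma F test, adjusted p = 1e-06), and its 66708 libraries, at 480 and 472 scaled reads, overlapped their range of 425 to 1079.

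Protein breakdown genes were raised in both the proteasome and the lysosome. The proteasome, which degrades ubiquitin-tagged proteins, had 30 genes higher and 1, Psmd8, lower of 40, with a median log2 difference of 0.16. Psmb10, a catalytic subunit of the immunoproteasome, had 734 and 682 scaled reads in 66708, against 391 to 482 in the shERWOOD libraries, a 1.58-fold difference. With the length trend removed the proteasome had 24 higher and 3 lower.

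The lysosome digests material in an acid lumen that the V-ATPase proton pump maintains. Of 27 tested genes of its membrane and pump 20 rose and none fell. Atp6ap1, an accessory subunit of the pump, had 3222 and 3094 scaled reads in 66708, against a lowest of 1831, a median of 2007 and a highest of 2098. Lamp1, the abundant membrane glycoprotein, had 21215 and 20576, against 13476 to 14686. Both genes were higher in each 66708 library than in any shERWOOD library (log2 differences 0.57 ± 0.03 and 0.53 ± 0.04, SE; limma, adjusted p = 6.4e-09 and 2.13e-08). Of 35 hydrolases and cathepsins 18 rose and 4 fell. The proteases Ctsd and Ctsh were 1.72-fold and 1.71-fold higher, and Lgmn, the asparaginyl endopeptidase, was 1.47-fold lower. Autophagy genes stood at 7 higher and 7 lower of 28, near the shares of all genes, and those called lower numbered 2 without 66708 replicate 1 and 3 without replicate 2.

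**Figure D3:**
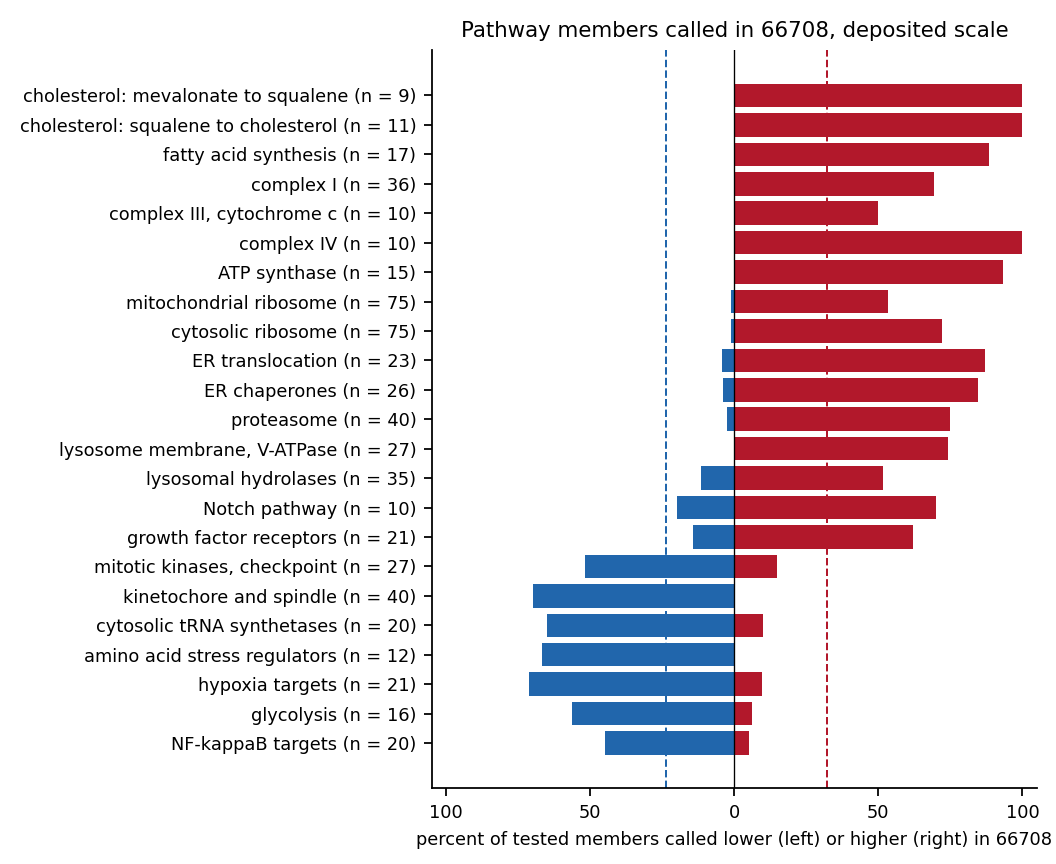
Percent of the tested members of 23 gene groups called higher (red, right) or lower (blue, left) in 66708 on the deposited scale, with the number tested in brackets. Dashed lines are the percent over all 9489 genes tested, 32.1 higher and 23.6 lower; all 10 complex IV genes are called higher, and 28 of 40 kinetochore and spindle genes lower.

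Sterol and most fatty acid synthesis genes were higher, while glycerolipid and lipid droplet genes were divided. All 20 tested enzymes of cholesterol synthesis rose, 9 up to squalene and 11 after it. The list of these genes was already known to differ in these data, so the count is a description. Mvd, mevalonate diphosphate decarboxylase, was 1.85-fold higher, and 15 of 17 fatty acid synthesis genes tested on the deposited scale rose with none lower. The weakly expressed Acacb, an acetyl-CoA carboxylase, fell by limma-voom. Elovl6, an elongase, had 7398 and 7611 scaled reads in 66708, against 4104 to 4767, and Scd2, a desaturase, had 46251 and 47240, against 26260 to 30422. Both were above every shERWOOD library. With the mean of each line as 1 sample (hairpin means), 9 fatty acid synthesis genes were called. Of 9 glycerolipid and droplet genes 3 rose and 4 fell, with a median log2 difference of -0.02, and 0 were called higher without 66708 replicate 1. Fatty acid oxidation was mixed, 8 higher and 4 lower of 19. Cpt1a, which admits long fatty acids to the mitochondrion, had 436 and 472 scaled reads, against 741 to 844, while Eci1, an isomerase of the oxidation spiral, passed on the higher side.

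Genes that build the mitotic apparatus were lower in 66708. At mitosis, kinetochores tie chromosomes to spindle fibres, motor proteins of the kinesin family move them, and a checkpoint holds anaphase until all are attached. Of 40 tested kinetochore, spindle and chromosome structure genes 28 fell and none rose, with a median log2 difference of -0.15. Of 27 mitotic kinase, cyclin and checkpoint genes 14 fell and 4 rose, Cdk1, Bub3, Mad2l1 and Nek2. Cenpf, a large kinetochore protein, had 8015 and 8561 scaled reads in 66708, against a lowest of 11387, a median of 12090 and a highest of 12343 in the shERWOOD libraries. Cenpe, a kinetochore motor, had 7585 and 7962, against 9922, 10447 and 10736. The groups did not overlap for either, at 1.44-fold and 1.34-fold lower (log2 differences -0.50 ± 0.04 and -0.40 ± 0.04, SE; limma, adjusted p = 1.29e-07 and 3.7e-07).

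The proliferation marker Mki67 was at 32901 and 33028 scaled reads in 66708, against 38978 to 44103. Aspm, a spindle pole protein, was 1.33-fold lower, the checkpoint kinases Bub1 and Bub1b were 1.30-fold and 1.25-fold lower, and Mad2l1, another checkpoint protein, was 1.21-fold higher. Ccnb1, cyclin B, did not pass at 2534 and 2741, against 2358 to 2735. Among the shERWOOD lines 0 of the 40 structure genes differed in limma's F test, with 6 at an unadjusted p under 0.05 and 1 by limma-voom. The count rests on the 66708 libraries, since 17 of the structure genes were called without 66708 replicate 1 and 16 with hairpin means as samples. Of the kinase and checkpoint genes 9 were called lower without 66708 replicate 2 and 6 with hairpin means. With the length trend removed 31 of the 40 fell.

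DNA replication genes did not move as a group. Of 48 origin, helicase and polymerase genes 13 rose and 11 fell, and of 28 genes of nucleotide supply and the E2F cyclins 13 rose and 5 fell. Leaving out 1 library at a time moved the first counts to 7 higher without 66708 replicate 2 and to 7 lower without replicate 1. For the nucleotide group it left 1 lower without 66708 replicate 1, 2 without replicate 2, and 3 without Slpi2 replicate 2 or either Slpi4 replicate. Mcm2, a subunit of the replicative helicase, was the exception in size. It had 1411 and 1435 scaled reads in 66708, against a lowest of 2459, a median of 2517 and a highest of 2587, and was 1.77-fold lower (log2 difference -0.67 ± 0.03, SE; limma, adjusted p = 6.98e-10). Its partners Mcm7 and Mcm5 rose, with voom folds of 0.26 and 0.12 on the log2 scale, against -0.83 for Mcm2.

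RefSeq promoters of mitosis genes often hold the letters TTTGAA, the core of the cell cycle genes homology region through which the DREAM complex acts. The window searched was 250 bases before to 50 bases after each annotated start, on both strands (GRCm38.p6). The letters were in 37 of 57 mitosis genes with a promoter (64.9%), in 12 of 62 DNA replication genes (19.4%) and in 20.2% of all 27025 genes in the promoter table. A match describes the letters in the window and nothing about a factor. The called mitosis genes with a match and the largest differences were Cenpf and Aspm. Their 120 bases around the match are shown 5′ to 3′ on the gene's strand with the match in capitals, Cenpf from chr1:189688037-189688156 (minus strand) and Aspm from chr1:139454703-139454822 (plus strand), because they carry the same letters 2 and 6 bases after the start.
Cenpf: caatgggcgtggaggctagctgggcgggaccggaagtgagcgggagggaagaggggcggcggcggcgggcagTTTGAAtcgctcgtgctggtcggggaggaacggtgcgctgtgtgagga
Aspm: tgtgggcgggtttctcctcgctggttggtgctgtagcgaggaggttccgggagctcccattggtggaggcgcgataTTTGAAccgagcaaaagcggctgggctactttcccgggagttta

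Genes charging tRNAs, and the regulators of the amino acid stress program, were lower in 66708 but also varied between the shERWOOD lines. When amino acids run short or proteins misfold, the transcription factor ATF4 raises genes for amino acid synthesis, uptake and tRNA charging. Of 20 cytosolic tRNA synthetase genes 13 fell and 2, Farsa and Wars, rose, whereas of 14 mitochondrial ones 4 fell and 3 rose. Cars, the cysteine enzyme, had 847 and 832 scaled reads in 66708, against 1046 to 1587, and was 1.53-fold lower. Lars2, the mitochondrial leucine enzyme, had 6332 and 6308, against 3115 to 4166, and was 1.73-fold higher. Reads assigned to Rn45s also made up a larger share of the 66708 libraries, and their part in the Lars2 count was not tested.

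Of 12 regulators of the program 8 fell and none rose, a list whose direction was already known in these data. By line, Chac1, a glutathione-degrading enzyme, averaged 230 scaled reads in 66708, against 377 in Slpi1U1, 999.5 in Slpi4, 1421 in Slpi1U2 and 1917 in Slpi2. Trib3, a pseudokinase that restrains ATF4, averaged 75.4 in 66708, against 114, 318, 371 and 692 in the same lines. In 66708 Trib3 lay under the test's minimum of about 121 scaled reads and passed it only through shERWOOD lines. Slpi1U1 was the nearest to 66708 and Slpi2 the farthest in both genes. Of the 12 regulators 10 differed among the shERWOOD lines, and 11 of the 20 cytosolic synthetases did, against 7.55% of all genes. With hairpin means as samples, where those lines set the spread, 4 regulators and 8 synthetases were called lower. Cth, the cystathionine lyase that makes cysteine, went the other way at 252 and 263 scaled reads in 66708, against 85.5 to 143.

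The core of the amino acid response element, TGATGNAA on either strand, was in 12 of 44 promoters of the amino acid stress list (27.3%) and in 5 of 26 of the tRNA synthetases (19.2%), against 4.51% of all promoters. Chac1 and Pck2, the mitochondrial phosphoenolpyruvate carboxykinase, had the largest called differences among genes with a match. Their matches, both on the opposite strand, stand 193 and 103 bases before the start and are in capitals below, Chac1 from chr2:119350993-119351112 and Pck2 from chr14:55540107-55540226 (both plus strand).
Chac1: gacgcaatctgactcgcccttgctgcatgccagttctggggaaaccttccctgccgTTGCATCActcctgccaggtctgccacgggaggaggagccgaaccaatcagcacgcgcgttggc
Pck2: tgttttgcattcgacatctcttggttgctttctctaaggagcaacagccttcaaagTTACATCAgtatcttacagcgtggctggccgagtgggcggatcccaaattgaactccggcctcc

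The binding letters of NRF1, a regulator of nuclear genes for respiration, searched as GCGCA, any base and GCGC on both strands, were in 15 of 60 respiratory chain promoters (25.0%) and in 12 of 67 of the mitochondrial ribosome (17.9%), against 5.19% of all promoters. Cox6a1 holds 2 matches and Atp5g3, a subunit of the ATP synthase ring, holds 1. They are shown from chr5:115349056-115349175 and chr2:73911277-73911396 (both minus strand), with matches in capitals.
Cox6a1: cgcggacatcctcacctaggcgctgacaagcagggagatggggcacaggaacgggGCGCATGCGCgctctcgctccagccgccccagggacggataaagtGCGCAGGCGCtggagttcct
Atp5g3: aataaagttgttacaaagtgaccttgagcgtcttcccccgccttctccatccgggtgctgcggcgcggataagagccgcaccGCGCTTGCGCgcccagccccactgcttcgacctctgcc

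**Figure D4:**
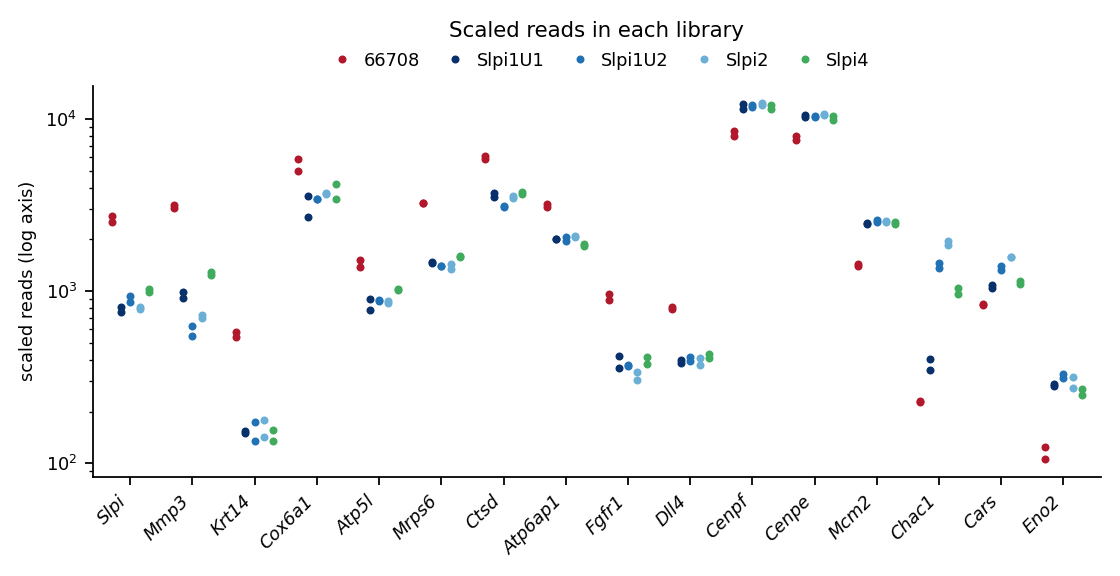
Scaled reads (log axis) of 16 genes named in the text, 1 point per library, with 66708 in red at the left of each gene and the 4 shERWOOD lines in blue and green to its right. The 66708 points lie outside the range of the other 8 for all 16 genes, and the shERWOOD lines spread most for Chac1.

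Glycolysis moved with the hypoxia targets. Of 16 tested genes from glucose uptake to lactate 9 fell and 1, Pgam1, rose. Of 21 hypoxia genes 15 fell and 2 rose, the transcription factor genes Hif1a and Arnt. Over all genes tested 32.1% rose and 23.6% fell. The hypoxia list was chosen with earlier results of these data known, so its count is a description. The Pgam1 call was lost without either 66708 replicate, and hypoxia genes called higher numbered 1 without 66708 replicate 2 and 4 without Slpi1U1 replicate 2. Eno2, an enolase, had 124 and 106 scaled reads in 66708, against a lowest of 250, a median of 286 and a highest of 331. Pfkp, the platelet-type phosphofructokinase, had 1282 and 1287, against 1890 to 2183. Adm, the vasodilator peptide adrenomedullin, had 44.8 and 39.6, against 132 to 201, and was 3.71-fold lower. The 66708 libraries lay below all others in these 3 genes. In 66708 Adm lay under the test's minimum of about 121 scaled reads, and Eno2 stood near it. Adm passed that minimum only through the shERWOOD libraries, so its fold is given as a value. Among the shERWOOD lines 0 of the 16 glycolysis genes differed in limma's F test, with 3 at an unadjusted p under 0.05 and 1 by limma-voom. Of the 21 hypoxia genes 4 differed in that F test at an adjusted p under 0.05, against 7.55% of all genes.

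Genes of NF-kappaB signalling were mostly lower where they passed, 9 lower and 1 higher of 20. Traf1, a receptor adaptor, had 775 and 792 scaled reads in 66708, against 1036 to 1410, and the adhesion molecule Icam1 and the inhibitor Nfkbia fell too. Cytokine and chemokine genes took no common direction: the chemokines Ccl2 and Cx3cl1 were 2.85-fold and 1.88-fold higher, and Cxcl10 and Ccl5 were 1.59-fold and 1.47-fold lower. Ccl2 had 619 and 708 scaled reads in 66708, against 130 to 408, and also differed among the shERWOOD lines (limma F test, adjusted p = 3e-06). Among 22 cytokine receptors 13 rose and 4 fell, 2 of them without 66708 replicate 1, and Il1r1, the interleukin 1 receptor, had 1079 and 1134, against 442 to 709.

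Of 21 growth factor receptor genes tested on the deposited scale 13 rose and 3 fell, beside the 32.1% of all genes called higher and 23.6% lower, while of 6 weakly expressed ones 1 rose and 4 fell. Of 10 Notch pathway genes 7 rose and 2 fell, with 4 called higher when hairpin means were the samples and 0 called lower without 66708 replicate 1. Fgfr1 and Fgfr2, receptors for fibroblast growth factors, had 895 and 961, and 1337 and 1314 scaled reads in 66708, against 305 to 419 and 503 to 708. Dll4 and Jag1, ligands that activate Notch on a neighbouring cell, had 785 and 809, and 733 and 806, against 375 to 432 and 397 to 444. All 4 were above every shERWOOD library, at 2.51-fold, 2.12-fold, 1.99-fold and 1.81-fold. The receptor Notch1 and the target Hes1 also rose.

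Of 12 Wnt ligand and receptor genes 8 rose and 1, Lgr6, fell, and the Frizzled receptors Fzd1, Fzd2, Fzd5 and Fzd7 were among those higher. Tgfa, a ligand of the epidermal growth factor receptor, had 3363 and 3467 scaled reads, against 1583 to 2342, and Kitl, the ligand of Kit, had 958 and 928, against 484 to 613. The receptor kinase Tyro3 was 1.62-fold lower.

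Slpi belongs to a larger set of secreted proteases and inhibitors, and that set was not uniform. Of 20 tested serine proteases and inhibitors, Slpi included, 14 rose and 2 fell, with 9 called higher when hairpin means were the samples. Prss23, a secreted serine protease, had 751 and 871 scaled reads in 66708, against 417 to 563, and Htra1, another, passed on the lower side. The set had 1 gene called lower without 66708 replicate 1. Of 20 metalloproteinases and inhibitors tested on the deposited scale 10 rose and 6 fell, whereas of 9 weakly expressed ones 2 rose and 6 fell (limma-voom). Of 6 weakly expressed serine proteases and inhibitors 2 rose and 2 fell. Over all genes tested on the deposited scale 32.1% rose and 23.6% fell, and over all weakly expressed genes 12.7% rose and 27.9% fell. Mmp3, stromelysin, had 3156 and 3068, against 550 to 1295, and Adamts9 had 518 and 511, against 157 to 249. Mmp3 differed among the shERWOOD lines as well, with means of 588 in Slpi1U2 and 1268 in Slpi4 (limma F test, adjusted p = 8.4e-07). Of 9 collagen genes tested on the deposited scale 4 rose and 4 fell, and of 7 weakly expressed ones 3 rose and 4 fell.

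Desmosome and junction genes held some of the larger changes. Jup, plakoglobin of the desmosome, had 1879 and 1704 scaled reads in 66708, against 908 to 1094, and Perp, a desmosomal membrane protein, had 2451 and 2414, against 972 to 1244. Both were above all shERWOOD libraries. The 2 adherens and desmosome genes called lower were lost without either 66708 replicate. Of 33 tested junction and keratin genes 13 rose and 6 fell, shares near those of all genes (32.1% and 23.6%). Of 12 genes linked to the mesenchymal state 9 rose and 1, Zeb2, fell, with 5 called higher without 66708 replicate 1. Vim, vimentin, and Cdh1 were both called higher, with voom folds of 0.20 and 0.37 on the log2 scale.

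Weakly expressed genes were then tested on recovered reads, because the deposited scale compresses them. These were 2843 genes averaging 10 scaled reads or more that lay below the minimum of the first test, which is about 121 scaled reads. Of them 361 (12.7%) rose and 793 (27.9%) fell in 66708 (limma-voom, Benjamini-Hochberg over 12332 genes). Of these, 111 and 260 differed by at least 2-fold. The minimum of 10 scaled reads is averaged over 10 libraries, 8 of them shERWOOD. A gene low only in 66708 passes it more easily than a gene high only in 66708. The counts and the median of these genes therefore do not weigh the 2 directions evenly. Called one way against each of the 4 lines were 5.31% on the higher side and 8.58% on the lower, with the 66708 libraries shared by all 4 comparisons. Without 66708 replicate 2, the deeper library, 330 weak genes were called lower. Their median voom log2 fold was -0.19, against 0.02 over the genes of the deposited fit. Both 66708 libraries lay above the range of the other 8 for 11.6% of them and below it for 23.6%.

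The weak genes that rose most included some that were low in every shERWOOD library. Slc14a1, a urea transporter, had 93.6 and 126 scaled reads in 66708, against a lowest of 2.76, a median of 6.99 and a highest of 14.7. Kalrn, an exchange factor for small GTPases, had 44.8 and 51.2, against 0.919, 3.78 and 6.70. Scara5, a ferritin receptor of the scavenger class, had 202 and 239, against 11.03, 20.1 and 28.5. No shERWOOD library came near 66708 in these genes, and the folds were 15.2, 13.3 and 11.3. Slc14a1 and Kalrn averaged under 10 scaled reads in the shERWOOD lines and entered the test only through 66708, so their folds are given as values. For Scara5, which lay above that minimum in both groups, the voom fold was 3.56 ± 0.13 on the log2 scale (SE; limma-voom, adjusted p = 4.1e-12).

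Other large rises were those of Ace, the angiotensin-converting enzyme, at 311 and 282 scaled reads in 66708 against 30.8 to 84.8, and Prl3d2, a placental prolactin-family gene, at 103 and 127 against 7.65 to 36.2. Prl3d2 belongs to a family of near-identical copies, so its count is uncertain. Bpifb4, Prom2, Asb4 and Anxa8 were also among the 10 largest, with folds of 5.90 for Anxa8 to 10.2 for Bpifb4. Bpifb4, Prom2 and Asb4 too entered the test only through 66708. Among list members, Hey1, a Notch target, had 83.0 and 73.1, against 14.7 to 25.1, and Serpinb5, the inhibitor maspin, had 80.4 and 77.4, against 12.04 to 30.3. The epithelial splicing factor Esrp1 had 100 and 120, against 15.6 to 39.2, and the claudin Cldn2 had 52.7 and 56.1, against 5.36 to 22.9. All 4 lay above the shERWOOD range.

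The weak genes that fell most averaged under 10 scaled reads in 66708 and entered the test only through the shERWOOD libraries, 8 of the 10 that the minimum is averaged over. Plekha6, a junction-associated protein with a pleckstrin homology domain, had 0 and 1 reads in the 66708 libraries, against 7 to 32 reads in each shERWOOD library. On pooled reads this was 48.5-fold lower with a 95% counting interval of 8.58 to 1928 (exact binomial, counting error only). Mpeg1, the pore-forming perforin-2, had 1 and 2 reads, against 11 to 21, and was 12.03-fold lower (4.02 to 59.1). Psd2, an exchange factor for ARF6, had 0 and 3 reads, against 8 to 17, and was 10.2-fold lower (3.39 to 50.3). The intervals are wide because 66708 holds 3 reads or fewer of each gene. They take no account of these genes being picked for the largest falls, so they describe counting error and are no test of a difference.

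Spo11, the meiotic DNA-cutting enzyme, had 7.91 and 6.70 scaled reads in 66708, against 18.7 to 45.9, and Cacna2d4, a calcium channel subunit, had 3.95 and 4.88, against 19.1 to 28.2. Rxfp4, Prss27, Tmprss11f and Cntn2 stood at 5.14-fold to 6.42-fold lower. Tie1, an endothelial-type receptor kinase, had 31.6 and 19.5, against 52.0 to 86.5. The collagen Col14a1 had 23.7 and 24.4, against 39.1 to 77.8, while Col6a2 and Col12a1 were 3.54-fold and 3.45-fold higher.

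Interferon-stimulated genes moved in both directions, among weak and stronger genes alike. Interferons are released by virus-exposed cells and raise a set of antiviral genes, which double-stranded RNA can also trigger through sensors such as Ifih1. Of 20 weakly expressed stimulated genes 9 fell and 4 rose, and of 23 in the deposited fit 9 fell and 6 rose, with 5 called lower when hairpin means were the samples. Over all weakly expressed genes 27.9% fell and 12.7% rose, with a minimum that favours falls. Over all genes of the deposited fit 23.6% fell and 32.1% rose. Oas3, an antiviral synthetase activated by double-stranded RNA, had 56.7 and 53.6 scaled reads in 66708, against a lowest of 107, a median of 137 and a highest of 171. Oasl1 had 68.5 and 70.1, against 140 to 215, and Ifih1 253 and 285, against 412 to 484. These 3 lay below every shERWOOD library. Oasl1 was under the minimum of the deposited fit in 66708 and passed it only through the shERWOOD libraries. Ifitm3, which blocks virus entry, went the other way at 7900 and 6941, against 2998 to 3947, as did the weak gene Trim30a at 2.05-fold.

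The low end of the libraries shifted as a whole. The 1122 olfactory receptor genes of the table, which are textbook silent genes outside the nose, together took 6.93 and 8.83 CPM in 66708, against 15.4 to 23.7 CPM in the shERWOOD libraries. The 328 vomeronasal receptor genes took 3.62 and 4.14 CPM, against 5.47 to 8.98 CPM. The weak genes, chosen by a minimum averaged mostly over shERWOOD libraries, together took 7818 and 7716 CPM in 66708, against 8260 to 8914 CPM. All 3 sums were lower in both 66708 libraries than in any other library. The part of this shift in the weak genes called lower was not tested. Reads fell on 15184 and 16112 genes in 66708, against 15831 to 17793 in the shERWOOD libraries, although 1 of the 66708 libraries was the deepest of the 10.

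In 33 genes both 66708 libraries held no read while all 8 shERWOOD libraries held at least 1. In 8 genes the reverse was seen, with reads in both 66708 libraries and none in any of the 8 others. The reverse pattern asks for the absence of reads in more libraries than the first. The counts of 33 and 8 therefore do not weigh the directions evenly, and no difference between them is drawn. The highest of the 33, named after its values were seen, was Aire, a transcription regulator known from thymic self-tolerance. It had 5 to 15 reads in each shERWOOD library and was at least 8.07-fold lower in 66708 (3 reads over both libraries as the floor). The 8 reverse genes did not exceed a mean of 2.23 scaled reads in 66708.

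**Figure D5:**
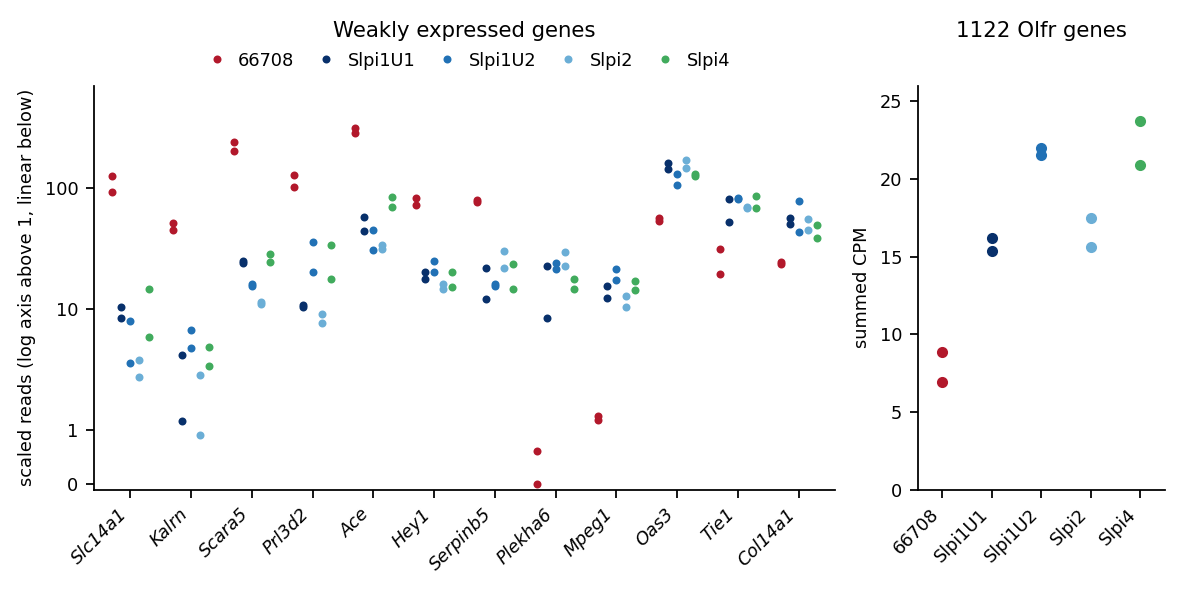
Left, scaled reads of 12 weakly expressed genes (log axis above 1, linear below), 1 point per library, 66708 in red at the left of each gene and the 4 shERWOOD lines to its right. Right, summed CPM of 1122 olfactory receptor genes in each library, 6.93 and 8.83 in 66708 and 15.4 to 23.7 in the shERWOOD lines.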

How the data were processed

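RNA sequencing libraries of 5 lines of transduced 4T1 cells, 2 each, were compared. Per the labels' protocols, 100 ng of RNA was amplified (NuGEN Ovation), sheared to about 200 bp and sequenced as 76 bp reads. The submitters' processing notes name mm10, Bowtie2, HTSeq and DESeq; the sources used here give no version, annotation or strand setting. The deposited values are log2-like, variance-stabilized by the authors, with replicate columns that could not be tied to single samples among the 40 labelled. The transform was inverted with the table minimum of 7.92 as its constant, as (2^v − 2 f)²/2v; 100% of values came out as whole reads within 0.001. The replicates differed by more than sampling noise (chi-square per degree of freedom 3.08 to 5.99 over genes with at least 20 reads).

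Genes with a mean at least 1 unit above the minimum (9489 of 23480) were tested on the deposited scale with limma 3.58.1 (R 4.3.3), intensity trend, means model over 5 lines, 66708 minus the mean of 4. Genes averaging 10 scaled reads or more (12332) were tested with limma-voom and TMM scaling. Tests are two-sided, adjusted by Benjamini-Hochberg over all genes of a fit and called under 0.05. Both were tested on simulated data. The members, gene lists and tests were chosen with earlier results of these data known. Named genes were Slpi, the 10 largest folds in each direction per fit with 66708 outside the range of the 8 (unnamed models passed over), up to 4 called members per list role, and members whose role is described. Transcript lengths came from GENCODE M21, promoters and coordinates from RefSeq (GRCm38.p6). Alternatives covered scaling, filters, each library or line left out, hairpin means, a replicate block and removal of the length trend, the last chosen after seeing the data. Hairpin sequences, and the 10 library columns of the other table, were not used here. A few genes that the naming rule selects are not reported here.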

Additional observations from a re-analysis of the deposited data

How the results depend on the processing

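On the deposited scale, the genes higher and lower in 66708 numbered 1831 and 1211 with hairpin means as samples, where 66708 is 1 sample whose spread is taken from the 4 others, and 1083 and 652 when a mean of 3 units above the minimum was asked; the stricter minimum tests fewer genes, Slpi not among them. Genes called against all 4 lines numbered 985 under it, and genes that differ among shERWOOD lines 314, or 272 without a filter. Weakly expressed genes numbered 188 higher and 489 lower with hairpin means. Library medians set equal (2541 and 2717), quantile normalization (2476 and 2565), voom (3320 and 3171) and removal of the length trend (2594 and 2582) stayed within 1.5 times of the first counts. Leaving out 1 library at a time gave 2208 to 3152 higher and 1534 to 2277 lower, 1791 to 2577 against all 4 lines, and 355 to 1294 among the shERWOOD lines. For weak genes it gave 276 to 356 higher and 330 to 808 lower, with the 330 without 66708 replicate 2, the deepest library. The same replicate numbers took no common direction across pairs of lines (correlations of deviations -0.53 to 0.55). Whether libraries are paired under numbers swapped in some lines was not tested. With a replicate block on the numbers as given, 2996 genes were higher and 2203 lower, and 2558 were called against all 4 lines. The block gave 570 genes among the shERWOOD lines, and 321 higher and 759 lower among weak genes. Gstt2, a weak gene at a voom fold of -1.01, ranged between -1.63 without 66708 replicate 1 and 0.086 without replicate 2. The part of depth in these counts was not tested.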

Other observations

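Chromosome 2, which carries Slpi, had fewer genes called higher in 66708 than the table as a whole. Of its 762 tested genes 22.3% were higher and 32.4% lower, against 32.1% and 23.6% over all genes tested. Its median log2 difference was -0.03 in 66708, with medians of -0.03 and -0.02 in the single libraries, and the deviations of the 4 shERWOOD lines from the 5-line mean lay between -0.002 and 0.011. With the length trend removed, 17.98% of its genes were higher and 38.6% lower. Slpi itself, Mmp9, Sulf2 and Itga8 lie on it and were higher, while Chac1, Trib3, Bub1 and Bub1b lie on it and were lower. The X chromosome stood at the other end, with 38.3% of 282 genes higher and 16.3% lower. No copy number was measured.

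Polyamine and prostaglandin genes held single changes in both directions. Smox, spermine oxidase, had 822 and 752 scaled reads in 66708, against 1227 to 1369 in the shERWOOD libraries. Ptgs1, the constitutive prostaglandin synthase, had 713 and 724, against 359 to 546, whereas the inducible Ptgs2 passed on the lower side. Of 53 tested spliceosome genes 26 rose and 3 fell, a count that fell to 17 with library medians set equal, 9 with hairpin means as samples and 14 without 66708 replicate 1.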
